A study of Danio rerio with 12 samples.

Results

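Zebrafish carry a pair of copies of the Sox9 gene, *sox9a* (ENSDARG00000003293) and *sox9b* (ENSDARG00000043923), which were chosen by their identifiers, 2 of the 32520 genes in the count table. Both had enough reads to be among the 19292 genes tested. The study sequenced polyadenylated RNA of juvenile gonads, each called ovary or testis under a microscope, after amplification of the cDNA. The groups were 30 dpf (days post fertilization) ovaries (n = 3), 25 dpf ovaries (n = 2), 30 dpf testes (n = 3) and 25 dpf testes (n = 4). All 12 gonads came from strain AB fish with the genotype Tg(piwil1-egfp-nos3UTR)ihb327Tg, in which the promoter of a germ cell gene drives a green fluorescent protein, and no group was without the transgene. Nothing in the sources used here says whether any gonads came from the same fish, so p-values measure the spread between these samples. Columns of the deposited table carry the size of the gonad instead of its sex. Big was read as ovary and small as testis from the study's description of wildtype juveniles, and column numbers were taken as replicate numbers.

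Sox9 is a transcription factor with an HMG box that binds DNA and bends it. In mammals it is switched on by Sry in the supporting cells of the embryonic testis, drives their differentiation into Sertoli cells and activates *Amh*, while Foxl2 and Wnt signalling oppose it in granulosa cells. Laboratory zebrafish have no *Sry*, the juvenile gonad passes through a stage with early oocytes in future males as well, and *sox9a* is known from Sertoli cells and *sox9b* from the ovary of adult fish. Both copies also act in cartilage, where Sox9 switches on collagen genes together with Sox5 and Sox6.

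The total count per gonad was between 4471588 and 5331223. Levels are given as CPM, which is counts in a library of 1000000 after TMM scaling, and 3 counts, the most that a count of 0 allows, correspond to 0.528 to 0.807 CPM. All 9 oocyte marker genes tested were higher in ovaries, beside 21.9% of all genes tested. Their summed level was 7147 to 10780 CPM in 30 dpf ovaries, 4435 to 5590 CPM in 25 dpf ovaries, 259.8 to 869.9 CPM in 30 dpf testes and 214.2 to 1313 CPM in 25 dpf testes, so the gonads read as ovaries held more oocyte RNA than any read as testes. The Sertoli or granulosa cell marker *amh* did not part the sexes in this way, as given further on. Muscle marker genes summed to 22850 CPM in 25 dpf testis 1, and *sox9a* there is given with the others, gonad by gonad.

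*sox9a* was highly expressed in testes relative to ovaries, and *sox9b* was not distinguishable between them. *sox9a* had 13, 10 and 29 counts in the 30 dpf ovaries, which are 3.50, 2.62 and 6.71 CPM, and 44 and 21 counts in the 25 dpf ovaries, which are 8.70 and 4.29 CPM. In the 30 dpf testes it had 64, 191 and 216 counts, or 12.9, 39.4 and 43.6 CPM, and in the 25 dpf testes 110, 135, 52 and 54 counts, or 23.9, 23.8, 9.84 and 9.69 CPM. Every ovary was below every testis. The gap was narrow, since 25 dpf ovary 1 at 8.70 CPM (exact 95% Poisson interval 6.32 to 11.7) and 25 dpf testis 4 at 9.69 CPM (7.28 to 12.6) overlapped in counting error. Such intervals cover counting error only.

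Averaged over both ages, *sox9a* had 5.16 ± 2.50 CPM in ovaries (SD, n = 5) and 23.3 ± 13.8 CPM in testes (SD, n = 7). Its log2 fold change of ovary over testis was −2.12 ± 0.44 (SE), which is 4.36-fold lower in ovaries with a 95% interval of 2.24-fold to 8.49-fold (adjusted p = 0.0028, edgeR's quasi-likelihood test, adjusted over all genes tested by the method of Benjamini and Hochberg). The SEs and intervals of log2 fold changes given here were worked back from edgeR's test and are approximate. The sexes differed widely in these gonads. In the same comparison 43.2% of all genes tested were called, 21.3% as higher in testes, and 8.20% had every ovary below every testis. Only 3.71% of genes had a lower log2 fold change than *sox9a*, and the median over all genes was −0.13. In bulk gonads, fewer cells of a type and less RNA per cell cannot be told apart.

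**Figure D1:**
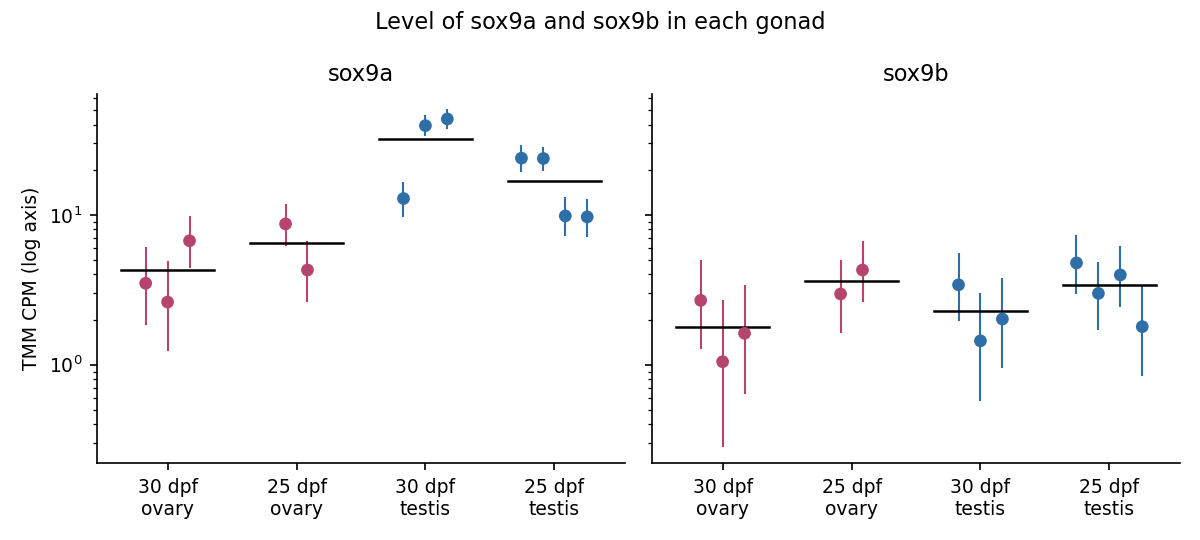
Level of sox9a (left) and sox9b (right) in each of 12 gonads, in TMM CPM on a log axis, with points for gonads, vertical bars for exact 95% Poisson intervals and horizontal lines for group means. All ovaries lie below all testes for sox9a, from 2.62 to 8.70 CPM against 9.69 to 43.6 CPM, and the sexes overlap for sox9b.

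*sox9b* was low in every gonad. It had 10, 4 and 7 counts in the 30 dpf ovaries, or 2.69, 1.05 and 1.62 CPM, and 15 and 21 counts in the 25 dpf ovaries, or 2.97 and 4.29 CPM. The 30 dpf testes had 17, 7 and 10 counts, or 3.41, 1.44 and 2.02 CPM, and the 25 dpf testes 22, 17, 21 and 10 counts, or 4.78, 2.99, 3.97 and 1.79 CPM. All 4 groups overlapped except for the 25 dpf ovaries, which were both above the 30 dpf ovaries. The share of all genes with that order was not computed, and nothing is read from it with so few gonads and counts. The means over both ages were 2.52 ± 1.26 CPM in ovaries (SD, n = 5) and 2.92 ± 1.23 CPM in testes (SD, n = 7), and the log2 fold change was −0.13 ± 0.39 (SE), with a 95% interval of −0.98 to 0.72 (adjusted p = 0.81, edgeR's quasi-likelihood test). The interval runs between a level 1.98-fold lower and a level 1.65-fold higher in ovaries. A difference of either sign within these approximate bounds remains possible.

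At 30 dpf *sox9a* was 7.38-fold lower in ovaries, with 4.28 ± 2.16 CPM in ovaries and 31.9 ± 16.7 CPM in testes (SD, n = 3 each). Its log2 fold change was −2.88 ± 0.60 (SE, 95% interval −4.19 to −1.58, edgeR's quasi-likelihood test, adjusted p = 0.0039), in a comparison that called 35.2% of genes, 16.5% as higher in testes. At 25 dpf *sox9a* had 6.49 ± 3.12 CPM in ovaries (SD, n = 2) and 16.8 ± 8.12 CPM in testes (SD, n = 4), with no overlap between the groups. At that age 19.15% of all genes tested had every ovary below every testis, so nothing is read from the lack of overlap. The log2 fold change of −1.36 ± 0.63 (SE, 95% interval −2.74 to 0.0055) did not pass the test (adjusted p = 0.16, edgeR's quasi-likelihood test), which called 13.2% of genes at that age, 8.64% as higher in ovaries and 4.59% as higher in testes. The sex difference at 30 dpf minus that at 25 dpf was −1.52 ± 0.82 for *sox9a* (SE, 95% interval −3.31 to 0.28, edgeR's quasi-likelihood test, adjusted p = 0.55). So *sox9a* passed at 30 dpf and not at 25 dpf, and the ages were not shown to differ. For this dependence on age edgeR called 0% of the genes tested, where 1952 genes had an unadjusted p under 0.05, whereas DESeq2 called 55 with a value above 0 and 34 below 0.

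*sox9b* gave a log2 fold change of ovary over testis of −0.36 ± 0.55 at 30 dpf (SE, 95% interval −1.57 to 0.85, adjusted p = 0.64) and 0.10 ± 0.55 at 25 dpf (SE, 95% interval −1.10 to 1.31, adjusted p = 0.92), both by edgeR's quasi-likelihood test. At 30 dpf it averaged 1.79 ± 0.83 CPM in ovaries and 2.29 ± 1.01 CPM in testes (SD, n = 3 each). At 25 dpf it averaged 3.63 ± 0.93 CPM in ovaries (SD, n = 2) and 3.38 ± 1.29 CPM in testes (SD, n = 4). The sign at 25 dpf turned with the scaling, as it was −0.0079 with upper-quartile factors and −0.015 with library totals. Its dependence on age was −0.46 ± 0.78 (SE, edgeR's quasi-likelihood test, adjusted p = 0.87).

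Neither copy passed the test between ages within a sex. In testes *sox9a* had a log2 fold change of 30 over 25 dpf of 0.93 ± 0.50 (SE, 95% interval −0.17 to 2.02, edgeR's quasi-likelihood test, adjusted p = 0.47), and the groups overlapped because 30 dpf testis 1, at 12.9 CPM, lay below the 25 dpf testes 1 and 2. In ovaries its value was −0.59 ± 0.65 (SE, 95% interval −2.02 to 0.83, edgeR's quasi-likelihood test, adjusted p = 0.77). For *sox9b* the same quasi-likelihood test of edgeR gave −0.55 ± 0.50 in testes (SE, adjusted p = 0.70) and −1.01 ± 0.60 in ovaries (SE, 95% interval −2.32 to 0.29, adjusted p = 0.54). Between ages edgeR called 0.00518% of the genes tested in testes, which is 1 gene, where 2514 had an unadjusted p under 0.05, and 0% in ovaries, where 2215 did. The calls of DESeq2 were 239 genes higher and 132 lower at 30 dpf in testes, and 120 higher and 70 lower in ovaries.

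The copies were next set against each other within a gonad, which needs no scaling between libraries. Transcript lengths were not used here, so the share of *sox9a* among the counts of both copies is no measure of which copy is more abundant, and only its differences between gonads are read. In the 30 dpf ovaries *sox9a* made up 56.5%, 71.4% and 80.6% of 23, 14 and 36 counts, and in the 25 dpf ovaries 74.6% and 50.0% of 59 and 42 counts. In the 30 dpf testes it made up 79.0%, 96.5% and 95.6% of 81, 198 and 226 counts, and in the 25 dpf testes 83.3%, 88.8%, 71.2% and 84.4% of 132, 152, 73 and 64 counts. The sexes overlapped in this share, with 30 dpf ovary 3 above 30 dpf testis 1 and 25 dpf testis 3. Few counts lie behind the lowest shares, and the exact (Clopper-Pearson) 95% interval of 30 dpf ovary 2 ran from 41.9% to 91.6%, against 92.8% to 98.6% for 30 dpf testis 2.

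The mean share was 66.6 ± 12.8% in ovaries (SD, n = 5) and 85.5 ± 8.98% in testes (SD, n = 7). On the log2 scale the ratio of *sox9a* to *sox9b* differed by −1.96 as ovary minus testis, so it was 3.89-fold lower in ovaries. The exact permutation test, two-sided with sex permuted within each age, gave p = 0.0133, or 0.0267 adjusted over the 2 comparisons planned for this ratio. The difference was −2.45 at 30 dpf and −1.47 at 25 dpf. Adjusted over all 6 ratio tests run here, 4 of which were added after the data were seen, the exact permutation p was 0.05. That value is not under the threshold of 0.05. Between ages the ratio of *sox9a* to *sox9b* was 0.92 higher at 30 dpf on the log2 scale (0.43 in ovaries and 1.41 in testes), with an exact permutation p of 0.131.

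**Figure D2:**
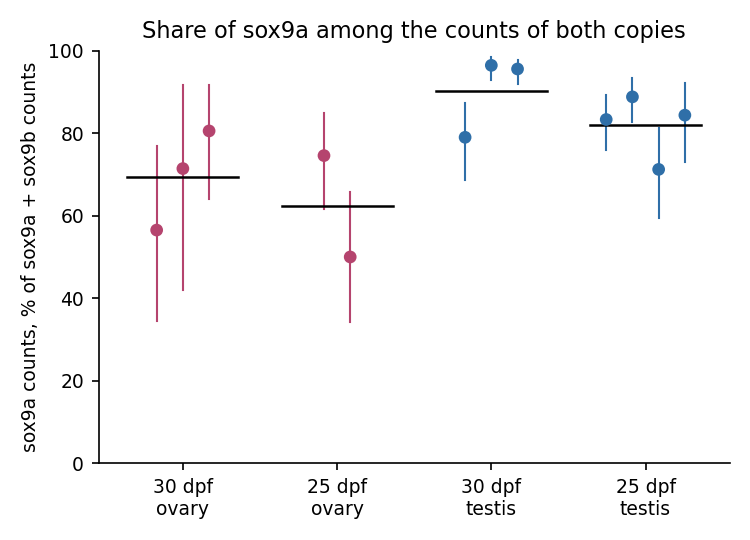
Share of sox9a among the counts of sox9a and sox9b in each gonad, in percent. Points are gonads, vertical bars exact 95% intervals and horizontal lines group means, and the highest shares are those of 30 dpf testes 2 and 3 (96.5% and 95.6%).

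Connective tissue genes moved with sex in the same direction as *sox9a*. Of 10 marker genes for stroma and connective tissue tested, 8 were higher in testes and 1, *acta2*, was higher in ovaries (a call lost in 13 of 21 alternative settings). Among the 8, the call for *LUM* was lost in 14 alternative settings and kept in 6. The median log2 fold change was −1.35. Of all genes tested, 21.3% were higher in testes and 21.9% higher in ovaries, with a median of −0.13. Their summed level was 1550 to 2460 CPM in 30 dpf ovaries, 2260 to 2987 CPM in 25 dpf ovaries, 6202 to 6991 CPM in 30 dpf testes and 3068 to 5771 CPM in 25 dpf testes, and none of them was at 0 in any gonad. Counts of each copy were therefore also divided by the summed counts of these genes, a measure added after the data were seen.

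Per 1000 such counts, *sox9a* had 2.25, 1.61 and 2.73 counts in the 30 dpf ovaries, and the 25 dpf ovaries had 2.91 and 1.90. It had 2.07, 6.13 and 6.24 in the 30 dpf testes and 5.77, 7.75, 1.70 and 2.08 in the 25 dpf testes. On this measure 4 testes lay above all ovaries and 3 lay among them. The means were 2.28 ± 0.55 in ovaries (SD, n = 5) and 4.53 ± 2.50 in testes (SD, n = 7), and the log2 difference of ovary minus testis, averaged over ages, was −0.77 (exact permutation test, two-sided, p = 0.147). *sox9b* had 1.73, 0.644 and 0.659 counts per 1000 in the 30 dpf ovaries, and the 25 dpf ovaries had 0.993 and 1.90. It had 0.550, 0.225 and 0.289 in the 30 dpf testes and 1.15, 0.975, 0.688 and 0.384 in the 25 dpf testes. All 3 of the 30 dpf testes lay below all ovaries on this measure, while the 25 dpf testes overlapped them. The means of *sox9b* were 1.19 ± 0.59 in ovaries (SD, n = 5) and 0.609 ± 0.352 in testes (SD, n = 7), with a log2 difference of 1.19 (exact permutation test, two-sided, p = 0.0167, and 0.05 adjusted over the 6 ratio tests). The divisor was chosen after it was seen to be higher in testes. A gene with equal CPM in both sexes therefore comes out higher in ovaries on this measure. For *sox9a*, which was higher in testes in CPM, the same division makes the sex difference smaller. The p-values between sexes are thus no separate results about either copy, and nothing is read from the 3 testes that lay among the ovaries for *sox9a*. Between ages the same measure gave 0.08 for *sox9a* (exact permutation p = 0.849) and −0.84 for *sox9b* (exact permutation p = 0.0657), as 30 minus 25 dpf. The tests in CPM and relative to connective tissue genes are of different kinds, and the ratio gives no verdict on the makeup of the gonads.

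**Figure D3:**
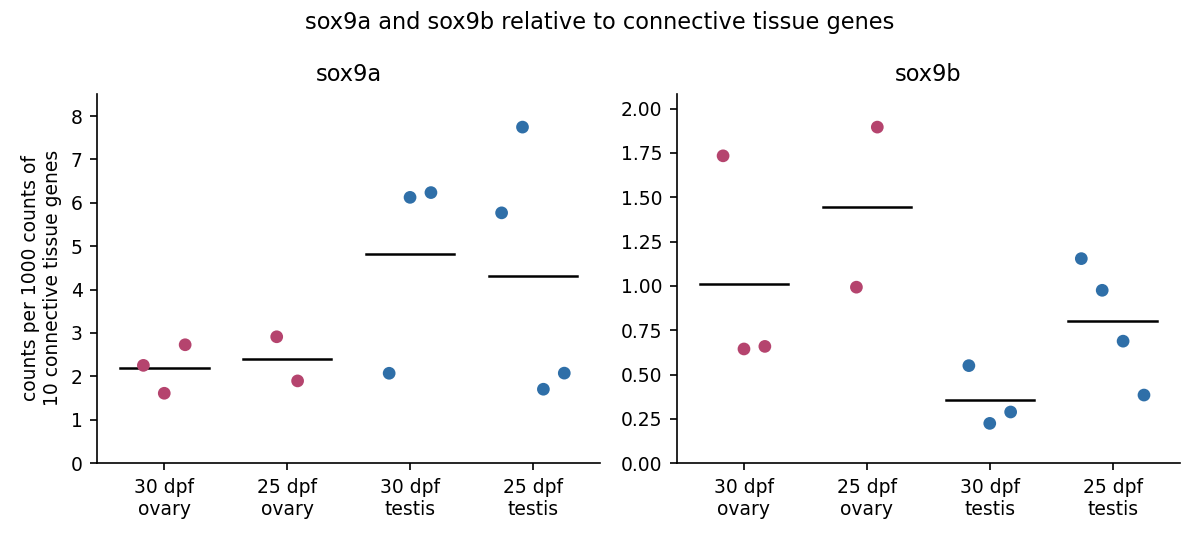
Counts of sox9a (left) and sox9b (right) per 1000 counts of 10 connective tissue genes in each gonad, with horizontal lines at the group means. For sox9a, 30 dpf testis 1 and 25 dpf testes 3 and 4 lie among the ovaries, at 2.07, 1.70 and 2.08, and the other testes lie between 5.77 and 7.75.

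Markers of other cell types are given beside these values, and their part in the level of *sox9a*, like that of the connective tissue genes, was not tested. Their counts are to be read against the 21.9% of all genes tested that were higher in ovaries and the 21.3% that were higher in testes, and nothing is read from a count near these shares, such as those of the meiosis and muscle markers. Of the Sertoli or granulosa markers, 3 of 7 were higher in testes, and of the Leydig or theca markers 5 of 7, among them *cyp11c1*, which makes 11-oxygenated androgens. Of the germ cell markers 7 of 8 were higher in ovaries, and their summed level was 4568 to 7091 CPM in ovaries and 2234 to 2889 CPM in testes. The meiosis markers had 1 of 7 higher in ovaries, the endothelium markers 3 of 4 higher in testes, the leukocyte markers 1 of 3, the kidney tubule markers 2 of 5, the muscle markers 1 of 5 and the liver, pancreas and gut markers 2 of 4. The neural crest and glia markers had 1 of 4 higher in each sex, and the blood markers 0 of 3, of which 0 had an unadjusted p under 0.05 in edgeR's test and 0 were called by DESeq2. Summed levels of the blood markers stood apart in 30 dpf testes 2 and 3, the gonads with the most *sox9a*, at 976.9 and 503.2 CPM, against 69.3 CPM in 30 dpf testis 1, 43.2 to 132.9 CPM in the 25 dpf testes and 35.5 to 152.3 CPM in the ovaries.

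*amh*, *gsdf* and *DMRT1* are on the list of Sertoli or granulosa markers, so their level is no measure of Sertoli cells alone. *amh* encodes the anti-Müllerian hormone, *gsdf* a TGF-beta family factor of fish supporting cells, and *DMRT1* a transcription factor needed for testis development in zebrafish. The gonads with the most *sox9a*, 30 dpf testes 2 and 3, also had the most of all 3. *amh* had 27.4, 26.7 and 12.04 CPM in the 30 dpf ovaries and 19.6 and 31.2 CPM in the 25 dpf ovaries, against 15.5, 529.7 and 1041 CPM in the 30 dpf testes and 14.5, 36.4, 13.4 and 9.15 CPM in the 25 dpf testes. 30 dpf testis 1 was within the range of the ovaries for *amh*, as were 2 of the 25 dpf testes, while 1 was above it and 1 below. *gsdf* had 1244, 3962 and 5187 CPM in the 30 dpf testes and 313.1 to 1327 CPM in the 25 dpf testes, and *DMRT1* had 17.3, 121 and 163.5 CPM in the 30 dpf testes and 22.3 to 38.9 CPM in the 25 dpf testes. In ovaries of both ages *gsdf* had 398.7 to 1001 CPM and *DMRT1* 11.5 to 22.9 CPM. In 30 dpf testis 1 and the 25 dpf testes, 5 gonads in all, *sox9a* was above every ovary in 5, *DMRT1* in 3, *gsdf* in 2 and *amh* in 1. The count for *sox9a* only restates that every ovary was below every testis, as for 8.20% of all genes tested. The share of all genes with such counts in these 5 gonads was not computed, and no ranking of the genes is read from them.

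Over both ages the log2 fold change of ovary over testis was −2.06 ± 0.75 for *amh* (SE, adjusted p = 0.045), −1.38 ± 0.40 for *gsdf* (SE, adjusted p = 0.0164) and −1.59 ± 0.45 for *DMRT1* (SE, adjusted p = 0.0142) by edgeR's quasi-likelihood test. The call for *amh* was lost in 13 of 21 alternative settings, that for *DMRT1* with the replicate block (adjusted p = 0.0539, edgeR) and without 25 dpf ovary 2 (adjusted p = 0.0804, edgeR), and that for *gsdf* without 25 dpf ovary 1 (adjusted p = 0.083, edgeR). At 30 dpf all 3 genes passed the same edgeR test, with log2 fold changes of −4.58 for *amh* (adjusted p = 0.00812), −2.13 for *gsdf* (adjusted p = 0.0112) and −2.60 for *DMRT1* (adjusted p = 0.00767). At 25 dpf none of the 3 passed, with adjusted p-values of edgeR's test between 0.473 and 0.785, and *sox9a* did not either.

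Genes known from granulosa cells or the female pathway differed among themselves in the gonads with the most *sox9a*. *CYP19A1*, the aromatase that makes oestrogen, had 30.1, 2.47 and 1.01 CPM in the 30 dpf testes and 12.8 to 37.5 CPM in the 25 dpf testes, against 8.33 to 49.8 CPM in ovaries. One copy of *FOXL2* (ENSDARG00000068417), a transcription factor that maintains granulosa cells, had 39.4, 8.86 and 6.46 CPM in the 30 dpf testes and 25.4 to 122.1 CPM in the 25 dpf testes, against 13.4 to 83.0 CPM in ovaries. The other copy (ENSDARG00000042180) had 62.6, 2.27 and 2.22 CPM in the 30 dpf testes and 47.9 to 114.9 CPM in the 25 dpf testes, while 3 ovaries had under 1 CPM and 2 had 35.4 and 69.7 CPM. None of these genes passed edgeR's quasi-likelihood test between the sexes over both ages (log2 fold change 0.50 with adjusted p = 0.60 for *CYP19A1*, 0.43 with adjusted p = 0.55 and −0.97 with adjusted p = 0.54 for the copies of *FOXL2*). *CYP19A1* passed without 30 dpf testis 1 (1.83, adjusted p = 0.0258, edgeR) and *FOXL2* ENSDARG00000042180 without 30 dpf ovary 3 (−3.88, adjusted p = 0.0425, edgeR). In contrast to these genes, *LGR4*, a receptor for R-spondins, was highest of all gonads in 30 dpf testes 2 and 3, at 44.1 and 59.5 CPM, against at most 20.9 CPM elsewhere. A copy of *ESR2* (ENSDARG00000034181), an oestrogen receptor, had 113.8 and 229.3 CPM in these testes, 95.6 CPM in 30 dpf testis 1 and 52.2 to 186.7 CPM in the 25 dpf testes, against at most 50.5 CPM in ovaries. The other copy of *ESR2* (ENSDARG00000016454) had 132.3 CPM in 30 dpf testis 2, the least of all testes, and 236.4 CPM in 30 dpf testis 3. It had 303 CPM in 30 dpf testis 1 and 168.9 to 342.6 CPM in the 25 dpf testes, against at most 97.3 CPM in ovaries. *CTNNB1*, which encodes the beta-catenin of Wnt signalling, had a log2 fold change of −0.21 (adjusted p = 0.16, edgeR's test), and passed with upper-quartile factors (−0.35, adjusted p = 0.0348) and with library totals (−0.43, adjusted p = 0.0193). The 30 dpf testis 1, which had the least *sox9a* of its group, also stood with the 25 dpf testes for *amh*, *CYP19A1* and both copies of *FOXL2*. It lay below the 25 dpf testes for *DMRT1*, at 17.3 CPM against 22.3 to 38.9 CPM. For *cyp11c1* it lay above them, at 56.4 CPM against 0.946 to 49.95 CPM. No likeness of this gonad to the 25 dpf testes is read from these genes.

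**Figure D4:**
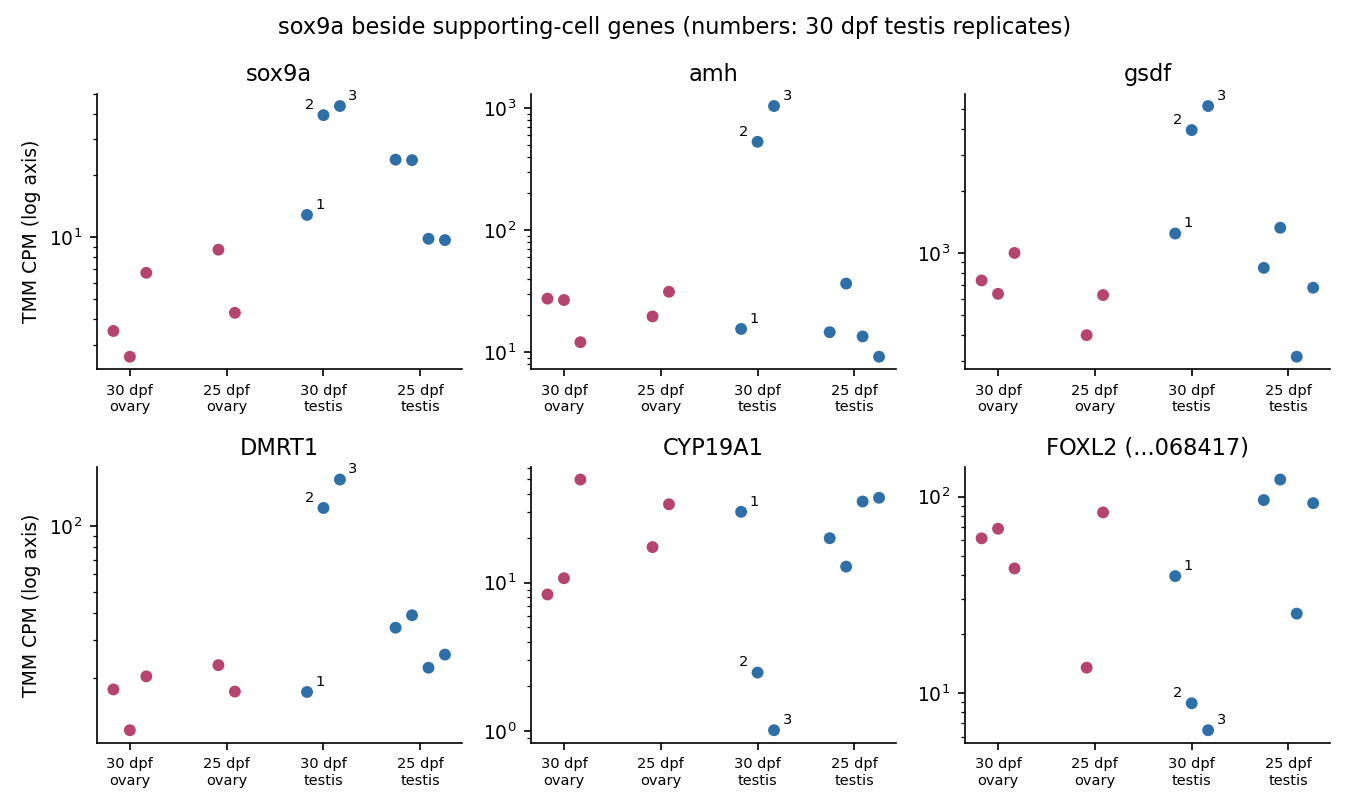
Level of sox9a, amh, gsdf, DMRT1, CYP19A1 and 1 copy of FOXL2 in each gonad, in TMM CPM on log axes, with the 30 dpf testes numbered by replicate. Testes 2 and 3 at 30 dpf have the most sox9a (39.4 and 43.6 CPM) and the most amh (529.7 and 1041 CPM), and the least CYP19A1 (2.47 and 1.01 CPM).

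Of 28 genes tested on the list of the male supporting-cell pathway, 14 were higher in testes, 1 was higher in ovaries and 13 did not pass edgeR's test, with a median log2 fold change of −1.07, beside 21.3% of all genes higher in testes, 21.9% higher in ovaries and a median of −0.13. Beside *amh*, the largest changes were those of a copy of *NR5A1* (ENSDARG00000103176, steroidogenic factor, −2.27), *ZFPM1* (a GATA cofactor, −1.86) and *CYP26B1* (which degrades retinoic acid, −1.85). *CYP26B1* had 209 CPM in 30 dpf testis 1 and 23.6 to 53.2 CPM in the other testes, against 9.69 to 32.9 CPM in ovaries. Its log2 fold change ranged from −2.05 to −1.18 with 1 gonad left out, and its call was kept in all 21 alternatives. *cbx2*, a Polycomb protein, was higher in ovaries with a log2 fold change of 0.59 and lost its call in 8 of 21 alternatives. Of 23 genes on the list of the female supporting-cell pathway 0 were higher in ovaries, 4 were higher in testes and 19 did not pass, with a median of −0.30, so that the share higher in testes was near that of all genes. Those 4 were both copies of *ESR2*, at −1.56 (ENSDARG00000034181) and −1.43 (ENSDARG00000016454), *LGR4* at −1.26, and a copy of *BMP2* (ENSDARG00000041430), a growth factor, at −2.08, whose call was lost in 8 of 20 alternatives. On this list 2 genes were higher in ovaries by the unadjusted p of edgeR's test, DESeq2 called 1, and without 30 dpf testis 1 edgeR called 4.

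Of 16 other Sox genes tested, 6 were higher in testes, 3 were higher in ovaries and 7 did not pass, with a median log2 fold change of −0.59. The share higher in ovaries was near the 21.9% of all genes, and 21.3% of all genes were higher in testes. The genes closest to Sox9 are the other soxE genes. The copy of *SOX8* ENSDARG00000037782 was higher in ovaries, the opposite direction to *sox9a*, with 10.8, 2.88 and 5.56 CPM in the 30 dpf ovaries and 29.9 and 6.53 CPM in the 25 dpf ovaries, against 1.81, 3.09 and 1.61 CPM in the 30 dpf testes and 2.64 to 4.56 CPM in the 25 dpf testes. Its groups overlapped at the low end, and its log2 fold change was 1.96 ± 0.43 (SE, adjusted p = 0.00414, edgeR's quasi-likelihood test). The copy of *SOX8* ENSDARG00000105301 had 0.10 ± 0.96 (SE, adjusted p = 0.94, edgeR's quasi-likelihood test), with a sign that turned to −0.028 with upper-quartile factors and −0.11 with library totals. *SOX10*, which acts in neural crest, had −0.77 ± 0.74 (SE, adjusted p = 0.42, edgeR's quasi-likelihood test).

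*SOX5* and *SOX6*, the partners of Sox9 in cartilage, followed the direction of *sox9a*. *SOX5* had 4.71 to 8.80 CPM in ovaries and 14.7 to 35.7 CPM in testes with no overlap, and its log2 fold change was −1.92 ± 0.23 (SE, adjusted p = 0.000114, edgeR's quasi-likelihood test). Of all genes tested, 8.20% had every ovary below every testis. *SOX6* had at most 26.7 CPM in ovaries and at least 24.6 CPM in testes, a small overlap, and its log2 fold change was −1.35 ± 0.28 (SE, adjusted p = 0.00281, edgeR's quasi-likelihood test). Among the 7 testes, 30 dpf testis 1 had the most *SOX5*, at 35.7 CPM. The 30 dpf testes 2 and 3, with the most *sox9a*, had 27.0 and 25.8 CPM of *SOX5* and 38.1 and 35.7 CPM of *SOX6*. The testis with the least *sox9a*, 25 dpf testis 4 at 9.69 CPM, also had the least of both, at 14.7 and 24.6 CPM. But 25 dpf testis 3, with nearly the same *sox9a* at 9.84 CPM, had 22.5 CPM of *SOX5* and 65.8 CPM of *SOX6*. How these genes run with *sox9a* among testes was not tested. A copy of *SOX4* (ENSDARG00000004588) at −1.34 and *sox12* at −2.78 were higher in testes. *sox12* ranged from −5.33 to −2.26 with 1 gonad left out, had 0 to 9 counts per ovary, and lost its call without 25 dpf ovary 2. It had 5.22, 11.3 and 24.0 CPM in the 30 dpf testes. In the 25 dpf testes it had 0.176 to 2.82 CPM, which overlapped the 0 to 1.78 CPM of the ovaries. *sox19b*, whose RNA is stored in the egg, at 3.30 and a copy of *SOX11* (ENSDARG00000095743) at 0.88 were higher in ovaries.

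Of 15 genes tested on the list of Sox9 targets in cartilage, 4 were higher in testes, 2 were higher in ovaries and 9 did not pass, with a median log2 fold change of −0.96. The share called was near the 43.2% of all genes tested (21.3% higher in testes and 21.9% higher in ovaries), so the counts on this list are no result about Sox9 targets. A copy of *COL2A1* (ENSDARG00000011407), the main collagen of cartilage, had 6.72, 7.07 and 12.3 CPM in the 30 dpf ovaries and 20.2 and 11.4 CPM in the 25 dpf ovaries, against 49.2, 34.8 and 35.3 CPM in the 30 dpf testes and 22.5 to 44.1 CPM in the 25 dpf testes. All ovaries were below all testes, as for 8.20% of all genes tested, and the log2 fold change was −1.65 (adjusted p = 0.000585, edgeR's quasi-likelihood test). *ucmaa* (a cartilage matrix protein, −1.51), *col11a1b* (a fibrillar collagen, −1.42) and *cnmd* (chondromodulin, −2.40, a call lost in 11 of 20 alternatives) were also higher in testes. *COL9A1* (1.87) and *col9a3* (2.04), collagens that coat cartilage fibrils, were higher in ovaries, and the call for *col9a3*, on 0 to 24 counts per gonad, was lost in 3 of 20 alternatives. Within testes *COL2A1* was highest in 30 dpf testis 1, which had less *sox9a* than 4 of the other 6.

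**Figure D5:**
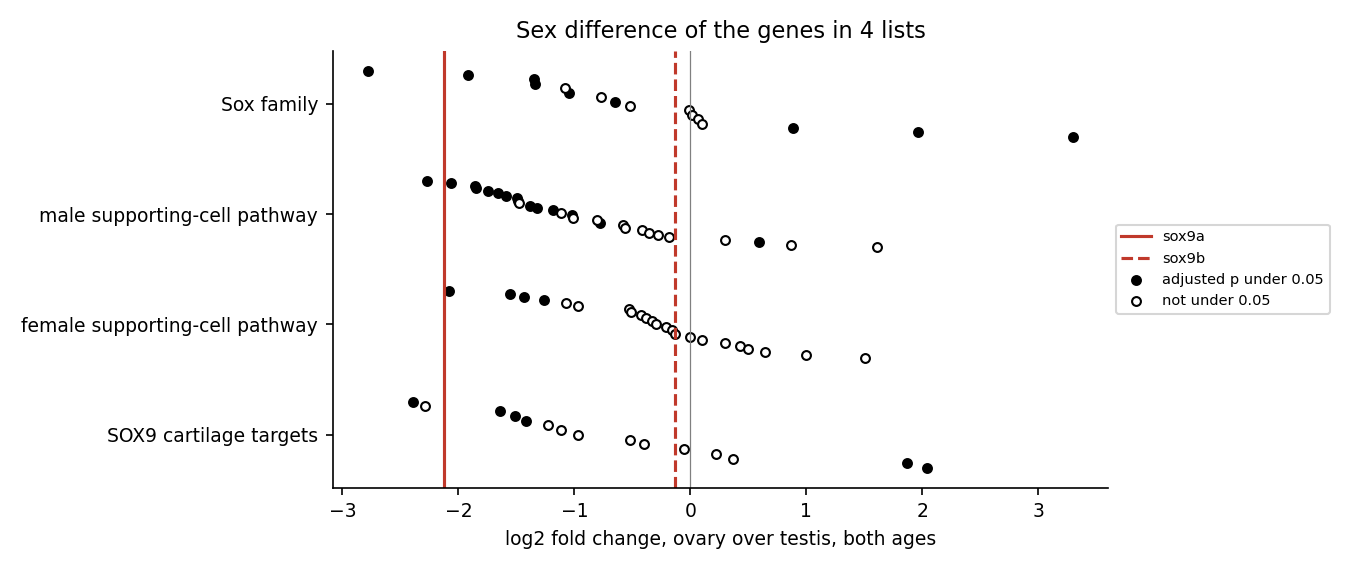
Log2 fold change of ovary over testis, over both ages, for the tested genes of 4 lists, with filled points where the adjusted p of edgeR's test was under 0.05. Vertical lines mark sox9a at −2.12 (solid) and sox9b at −0.13 (dashed), and genes of the male supporting-cell list lie mostly left of 0 (median −1.07).

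Levels of the copies did not run together over the gonads. Over the 12 gonads the Pearson correlation of log2(CPM + 1) between *sox9a* and *sox9b* was 0.07 (Spearman's rho 0.18), and it was −0.36 over the 7 testes. These values are descriptions, since gonads of a group share sex and age, and 51.1% of genes tested had a higher correlation with *sox9a* than *sox9b* had. The 5 genes with a symbol most like *sox9a* were si:ch73-193i22.1 (Pearson's r 0.961), *MTMR11*, a myotubularin-related protein (0.960), *gstr*, a glutathione S-transferase (0.950), wu:fu71h07 (0.946) and *FUT8*, a fucosyltransferase (0.946). As *sox9a* itself parts the sexes, genes chosen in this way tend to do so as well, and no test is given for them. The 5 most like *sox9b* were si:dkey-7i4.10 (0.930), *cd247*, the zeta chain of the T cell receptor complex (0.926), zgc:113278 (0.838), *mov10b.1* (0.826) and si:ch211-241a17.7 (0.817). They too were picked as the highest among the 19292 genes tested, for a copy with 4 to 22 counts per gonad. No test is given for them, and nothing is read from what they encode.

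Genes placed next to the copies in RefSeq's order of the GRCz12tu assembly were matched by symbol, and of 4 identifiers tested for each copy 2 passed beside *sox9a* and 1 beside *sox9b*, which beside the 43.2% of all genes called is no result about the neighbours. Beside *sox9a* these were 2 identifiers that share the symbol *VSTM4*, a membrane protein, with log2 fold changes of −1.32 (ENSDARG00000010154, adjusted p = 0.00176) and −1.92 (ENSDARG00000053186, adjusted p = 0.037, lost in 8 of 20 alternatives) by edgeR's test, of which the table does not say which one is the neighbour. Beside *sox9b* it was *SOX8* (ENSDARG00000037782), likewise matched by a symbol that 2 identifiers share. Between the ages 0 of the 82 genes tested on the 4 lists passed edgeR's test in either sex, where 9 in ovaries and 19 in testes had an unadjusted p under 0.05, and DESeq2 called 0 in ovaries and 7 in testes. Of all 19292 genes tested, 2215 in ovaries and 2514 in testes had an unadjusted p under 0.05 in edgeR's test. DESeq2 called 239 of them higher and 132 lower at 30 dpf in testes. No set test was run on these lists.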

How the data were processed

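The deposited values are raw counts per gene. According to the submitters' processing notes and the study's methods, the authors checked reads (MultiQC 0.9, FastQC 0.11.8), mapped them to GRCz11 with HISAT2 2.0.5, sorted them with SAMtools 1.5, removed duplicates with Picard and counted reads on exons with HTSeq 0.9.1 in reverse-stranded mode. The library kit in the labels does not mark strand, so that reads of a gene and of an antisense partner cannot be told apart. How reads matching both copies were treated is not given in the sources used here. All 12 columns were used and 0 were left out.

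Genes were filtered (filterByExpr), scaled by TMM and tested with edgeR 4.0.16 in R 4.3.3, by a quasi-likelihood model in which each of the 4 groups had its mean and all 12 gonads shared the spread. P-values were adjusted over all 19292 genes tested (Benjamini-Hochberg, threshold 0.05). SEs of log2 fold changes were not taken from the model. Each was the size of the log2 fold change divided by the square root of the test's F value. Intervals of log2 fold changes were built from these SEs with a t quantile, so both are approximate. Ratios between counts, with a pseudocount of 0.5, were tested by exact permutation (Python 3.11.15, SciPy 1.17.1). The scripts were tested on simulated counts. Symbols came from a reference table, which matched 29201 of 32520 identifiers, and list genes were matched by symbol, also without letter case or copy letter. The text names both Sox9 copies, up to 4 genes per list and direction among those passing over both ages, the soxE genes, *amh*, *gsdf*, *DMRT1*, *FOXL2*, *CYP19A1*, *CTNNB1*, passing neighbours and the 5 most correlated genes. *acta2*, *LUM* and *cyp11c1* fall under the same rule for the marker lists. Members and lists were chosen with earlier results of these data known. Alternatives were DESeq2 1.42.0, other size factors and filters, fewer samples, no interaction, robust dispersion, a replicate block and each gonad left out.

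Same-numbered gonads differ in sex or age, and over 15 such pairs the correlation of their deviations averaged −0.0034 (−0.24 to 0.14), so the numbers were not taken as pairs.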

Additional observations from a re-analysis of the deposited data

Results flagged for a closer look

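Among the 78 measures examined in the 25 dpf testes, 6 had a highest or lowest gonad whose gap to the nearest other, divided by the range, was above the critical value of 0.829 for 4 samples. *sox9a* and *sox9b* were not among them. Chance puts about 1 group in 20 past this value. The muscle markers summed to 22850 CPM in 25 dpf testis 1, and *actc1b*, a muscle actin, had 16390 CPM there. The other values that stood apart in the 25 dpf testes were 36.6 CPM for *STAR* (cholesterol transport for steroid synthesis), 5.81 CPM for *TDRD1* (a germ cell Tudor protein), 13.5 CPM for *LGR4* and 2.82 CPM for *figla* (an oocyte transcription factor).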

How the results depend on the processing

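The sex difference of *sox9a* over both ages and at 30 dpf kept its direction and its call in all 21 alternatives. Over both ages the log2 fold change was −2.31 to −2.08 in 9 other settings (adjusted p at most 0.0101) and −2.39 to −1.88 with 1 gonad left out, and at 30 dpf −3.14 to −2.85 and −3.40 to −2.60. At 25 dpf it was −1.93 to −0.91 with 1 gonad left out and never passed. Between ages in ovaries *sox9a* ranged from −1.11 to 0.031 with 1 gonad left out, above 0 only without 25 dpf ovary 1.

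*sox9b* had no stable sign. With 1 gonad left out it ranged from −0.33 to 0.070 over both ages (above 0 without 30 dpf ovary 2, at 0.0024, 25 dpf ovary 1, at 0.025, or 30 dpf testis 1), from −0.77 to 0.038 at 30 dpf (above 0 without 30 dpf testis 1) and from −0.15 to 0.37 at 25 dpf (below 0 without 25 dpf ovary 2, or 25 dpf testis 4, at −0.11). At 25 dpf it was −0.0079 with upper-quartile factors, −0.015 with library totals and −0.036 with the replicate block. It was not tested under a filter of at least 10 counts in every gonad. It rests on 4 to 22 counts per gonad, and counting error was not separated from the spread between gonads.

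The ratio of *sox9a* to *sox9b* between sexes lost its exact permutation call without 30 dpf ovary 1 (−1.75, p = 0.0533) and without 25 dpf ovary 2 (−1.58, p = 0.06), with a range of −2.40 to −1.58 when 1 gonad was left out, and between ages it passed without 30 dpf testis 1 (1.36, p = 0.04), with a range of 0.54 to 1.36. All calls of ratios in this paragraph set the unadjusted exact permutation p against 0.05. Adjusted over the 6 ratio tests, no ratio was under that threshold. The calls relative to connective tissue genes are no separate results, since the divisor was chosen after the data were seen. Relative to connective tissue genes, *sox9a* between ages was −0.013 when permuted without strata and −0.092 to 0.35 with 1 gonad left out, below 0 without 25 dpf ovary 2, 30 dpf testis 2 or 3, or 25 dpf testis 3 or 4. *sox9b* on that measure lost its call between sexes with medians (1.00, exact permutation p = 0.0533) and without 25 dpf ovary 2 (0.96, p = 0.08, with a range of 0.96 to 1.42), and passed between ages with medians (−1.22, p = 0.0457) and without 30 dpf ovary 1 (−1.06, p = 0.019), 25 dpf ovary 1 (−1.06, p = 0.0429) or 25 dpf testis 4 (−0.99, p = 0.045), with a range of −1.06 to −0.61.

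*SOX8* (ENSDARG00000105301) turned to −0.028 with upper-quartile factors and −0.11 with library totals and with the replicate block, and ranged from −0.67 to 1.30 with 1 gonad left out. With 1 gonad left out, *FOXL2* ranged from −4.07 to 0.68 (ENSDARG00000042180, above 0 without 30 dpf testis 1) and −0.45 to 1.05 (ENSDARG00000068417, below 0 without 25 dpf ovary 2), and *CYP19A1* from −0.15 (without 30 dpf ovary 3) to 1.83. Other scalings moved the median log2 fold change of all genes from −0.13 to −0.27 (upper-quartile) and −0.34 (library totals). The replicate block changed no call of *sox9a* or *sox9b*.

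At 25 dpf edgeR called 1666 genes with more and 886 with less RNA in ovaries, and these counts were 2177 and 1668 by DESeq2, 937 and 368 with the replicate block, 850 and 346 with only the groups compared and 81 and 11 without 25 dpf ovary 2, and 581 were higher in testes with no filter. At 30 dpf 3188 were higher in testes, 1985 without 30 dpf ovary 1 and 2027 without 30 dpf ovary 2, and over both ages 4108, or 2139 without 25 dpf ovary 2. With 1 gonad left out, genes called in ovaries and in testes numbered 0 to 3 and 12 to 15 on the male list, 0 to 4 and 2 to 6 on the female list, 3 to 4 and 4 to 7 on the Sox list and 1 to 2 and 3 to 4 on the cartilage list. The causes were not tested.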
